A study of Mus musculus with 5 samples.

Results

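The endothelial cells of uninjured muscle are the 1089 cells that the authors labelled endothelial among 5176 labelled cells of the day 0 matrix, or 21.0% (exact binomial 95% interval 19.9% to 22.2%). The series holds 17923 labelled cells in all, and its other days follow injury and were not analysed here. The cells came from the tibialis anterior, a shin muscle, of female C57Bl/6 mice aged 4 months with no injury and no other treatment named in the labels. The muscle was digested with collagenase and dispase, red cells were lysed, and cells were sorted as live by dye staining before droplet libraries of transcript 3' ends were made. The matrix pools 2 runs with no mark on a cell of the run it came from, so it was treated as 1 sample. The number of animals is not given in the sources used here. No difference in what follows therefore has a replicate or a test, and since labels of this kind are made from expression, the differences between labels describe the labelled cells. Intervals in brackets are 95% intervals and cover counting error only.

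Endothelial cells line every blood vessel. In skeletal muscle most of them sit in capillaries, where they pass oxygen, water, fatty acids and glucose to the fibres, while arterial endothelium meets the highest flow and pressure and venous endothelium admits leukocytes through adhesion receptors. The position of a cell along this path is read from graded sets of genes, among them Notch ligands and connexins in arteries, lipid and solute carriers in capillaries, and P-selectin and the chemokine receptor Ackr1 in veins.

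The 1089 cells held 3103113 unique molecular identifiers (UMIs, each standing for 1 captured transcript), with a median of 2203 per cell and a range of 1435 to 24270. The median was 4452 for the 3516 cells labelled FAP, the fibro/adipogenic progenitors of the connective tissue, and 3832.5 for all labelled cells. The remaining labels were immune (297 cells), smooth muscle (76), neural/glial (71), tenocyte (70) and platelet (57). A level is given as UMIs per 1000000 (cpm) over all cells of a label, and a ratio is the log2 of 2 such levels. A gene was compared when both sides together held at least 20 UMIs, which 13310 of 16454 genes did.

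The 5 markers of the label were high in its cells. Cdh5, the cadherin of endothelial junctions, stood at 1048 cpm (1013 to 1085) in the endothelial label and at 15.1 in FAPs, 27.0 in immune cells and 9.77 in tenocytes. Gpihbp1, which carries lipoprotein lipase to the capillary surface, stood at 2125 cpm against 27.8 in FAPs. Fabp4, a fatty acid binding protein, reached 19386 cpm against 286 in FAPs. Tcf15, a transcription factor of capillary endothelium that supports fatty acid uptake, stood at 1779 cpm against 26.9, and the water channel Aqp1 at 5810 against 91.8. All 5 markers had a UMI in 829 cells (76.1%), and 1 cell had none of them. In the FAP label, which should lack these genes, 16 of 3516 cells (0.455%) held all 5. After each cell was thinned to 1000 UMIs, 66.1% of endothelial cells had a UMI of Cdh5 (91.2% unthinned), against 1.62% of FAPs (5.86% unthinned) as the background share.

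**Figure D1:**
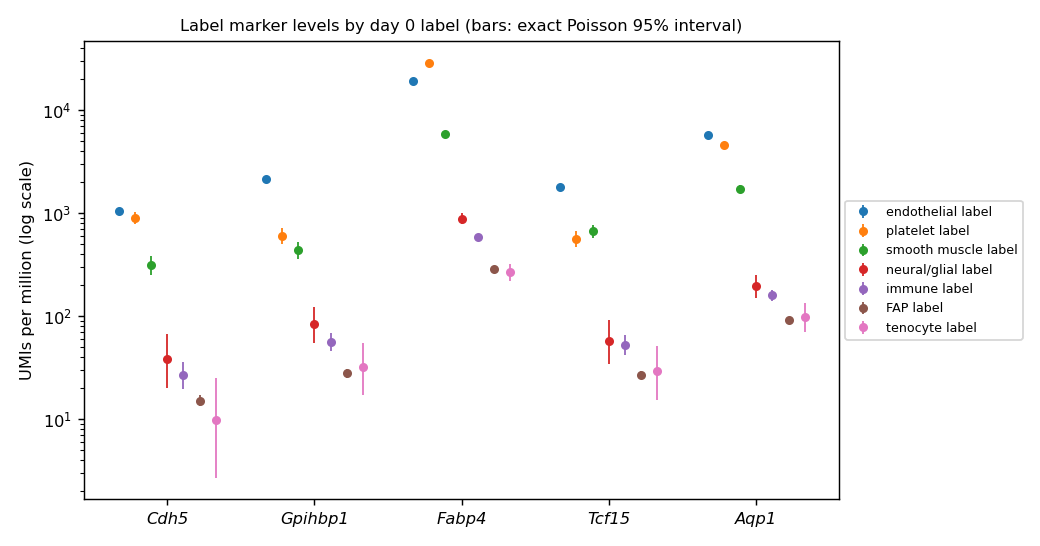
Levels of the 5 label markers (x axis) in UMIs per 1000000 on a log axis, for each of the 7 day 0 labels, with exact Poisson intervals as bars. The endothelial label leads for 4 of them, the platelet label lies above it for Fabp4, and the smooth muscle label lies above the 4 labels that remain for each marker.

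The markers were not confined to the endothelial label. In the 57 cells labelled platelet, Cdh5 stood at 900 cpm, Aqp1 at 4595 and Fabp4 at 28586, while Gpihbp1 (603 cpm) and Tcf15 (561 cpm) were lower than in the endothelial label. In the 76 cells labelled smooth muscle, Cdh5 stood at 313 cpm, Tcf15 at 668 and Aqp1 at 1729. The summed level of the 24 genes of the endothelial identity list was 13552 cpm in the endothelial label, 14043 in the platelet label, 4736 in the smooth muscle label and 2108 in FAPs. The platelet label held 7 UMIs over 5 platelet genes (33.0 cpm), and 3 of these 5 genes were at 0. In the immune label the same 5 genes reached 1029 cpm. The levels of both lists thus go against the name platelet, and these cells are called the platelet label here and get no other name.

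Promoter windows are shown for genes of each position that the results turned on: the marker Aqp1, capillary Car4, arterial Gja4 and Gkn3, and venous Selp. Among the endothelial clusters described in what follows, Aqp1 and Car4 were highest in the largest and Gja4 and Gkn3 in the arterial-like one. Selp was higher in the platelet label than in the endothelial label. Each is the 250 bases before the RefSeq start, from RefSeq on GRCm38.p6 (mm10), 5′ to 3′ on the strand of the gene. Capitals mark GGAA on either strand (read as TTCC on the other), the core bound by ETS factors such as Erg and Fli1.
Aqp1 (chr6:55336049-55336298, plus strand): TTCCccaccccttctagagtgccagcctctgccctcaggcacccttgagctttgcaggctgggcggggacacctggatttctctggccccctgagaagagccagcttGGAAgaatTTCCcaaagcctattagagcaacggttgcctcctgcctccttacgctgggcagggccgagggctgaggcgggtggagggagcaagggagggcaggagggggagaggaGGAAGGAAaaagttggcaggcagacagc
Car4 (chr11:84957504-84957753, plus strand): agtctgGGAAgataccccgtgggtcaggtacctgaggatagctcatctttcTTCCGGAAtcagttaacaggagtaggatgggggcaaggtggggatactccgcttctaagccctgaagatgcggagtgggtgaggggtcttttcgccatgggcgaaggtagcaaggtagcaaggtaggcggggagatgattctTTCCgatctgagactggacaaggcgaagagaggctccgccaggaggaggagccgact
Gja4 (chr4:127314040-127314289, minus strand): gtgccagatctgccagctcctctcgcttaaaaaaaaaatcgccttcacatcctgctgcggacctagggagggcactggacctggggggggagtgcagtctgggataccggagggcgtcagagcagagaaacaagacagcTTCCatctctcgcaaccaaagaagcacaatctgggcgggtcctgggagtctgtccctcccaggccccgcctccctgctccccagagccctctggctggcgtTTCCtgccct
Gkn3 (chr6:87388936-87389185, minus strand): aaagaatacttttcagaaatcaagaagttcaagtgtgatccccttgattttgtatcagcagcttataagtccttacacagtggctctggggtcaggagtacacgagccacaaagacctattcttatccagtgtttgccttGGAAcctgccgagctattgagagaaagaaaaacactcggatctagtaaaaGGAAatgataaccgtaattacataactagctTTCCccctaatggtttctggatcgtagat
Selp (chr1:164115014-164115263, plus strand): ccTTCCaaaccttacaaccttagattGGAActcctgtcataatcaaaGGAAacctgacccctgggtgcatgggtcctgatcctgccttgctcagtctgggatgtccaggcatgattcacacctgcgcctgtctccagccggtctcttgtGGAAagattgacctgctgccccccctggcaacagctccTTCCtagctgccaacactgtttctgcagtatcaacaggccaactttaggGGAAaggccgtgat
GGAA was found 5 times before Aqp1, 4 before Car4, 2 before Gja4, 3 before Gkn3 and 6 before Selp. It is a short word that 93.4% of all 32851 windows of this length hold, with a median of 3, so these counts do not set the genes apart. AACAAT, a word bound by SOX factors such as Sox17, was in 0 of 18 arterial, 2 of 16 capillary, 0 of 10 venous and 3 of 19 identity windows and in 9.42% of all windows, on either strand, and windows this few do not set the lists apart. CACCC, read by KLF factors, was in 11 of 18 arterial windows, 7 of 16 capillary windows, 8 of 10 venous windows and 52.0% of all. The window table matched 16 of 22 arterial, 10 of 16 capillary and 10 of 16 venous genes, some with several starts. The windows of Aqp1 and Car4 end at 55336298 and 84957753, while these genes start at 55336432 and 84957786 in GENCODE vM21. For both, 0 of its transcripts held the 30 bases after the RefSeq start, on either strand. In the GENCODE vM21 annotation of the same build, the protein-coding marker genes lie at chr8:104101625-104144511 (Cdh5), chr15:75596628-75599481 (Gpihbp1), chr3:10204088-10208576 (Fabp4), chr2:152143561-152149097 (Tcf15) and chr6:55336432-55348555 (Aqp1).

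Genes of endothelial identity stood apart as a group from the other cells of the muscle. Of 24 such genes, 23 were at least 2-fold higher in the endothelial label than in all other day 0 labels pooled, and 1 was at least 2-fold lower, with a median log2 ratio of 4.72. Over all 13310 genes, 15.4% were at least 2-fold higher and 20.5% at least 2-fold lower, and the median was 0.09. Cldn5, the claudin of tight junctions, stood at 1004 cpm against 9.79 in FAPs, a log2 ratio to all other labels of 5.81 (5.65 to 5.97). Sox18, a transcription factor of vessel formation, stood at 284 cpm against 1.84 in FAPs (log2 ratio 5.97, 5.65 to 6.31). The VEGF receptors Kdr (765 cpm) and Flt1 (960 cpm) had log2 ratios of 5.14 (4.99 to 5.30) and 4.99 (4.86 to 5.12). The exception was Cd34, a sialomucin also found on stromal progenitors, at 577 cpm in the endothelial label and 1325 in FAPs. Against the highest other label instead of the pool, 2 of the 24 genes were at least 2-fold higher, and for 22 of the 24 that highest label was platelet. Over all genes so compared, 193 of 11096 (1.74%) were at least 2-fold higher than in every other label.

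**Figure D2:**
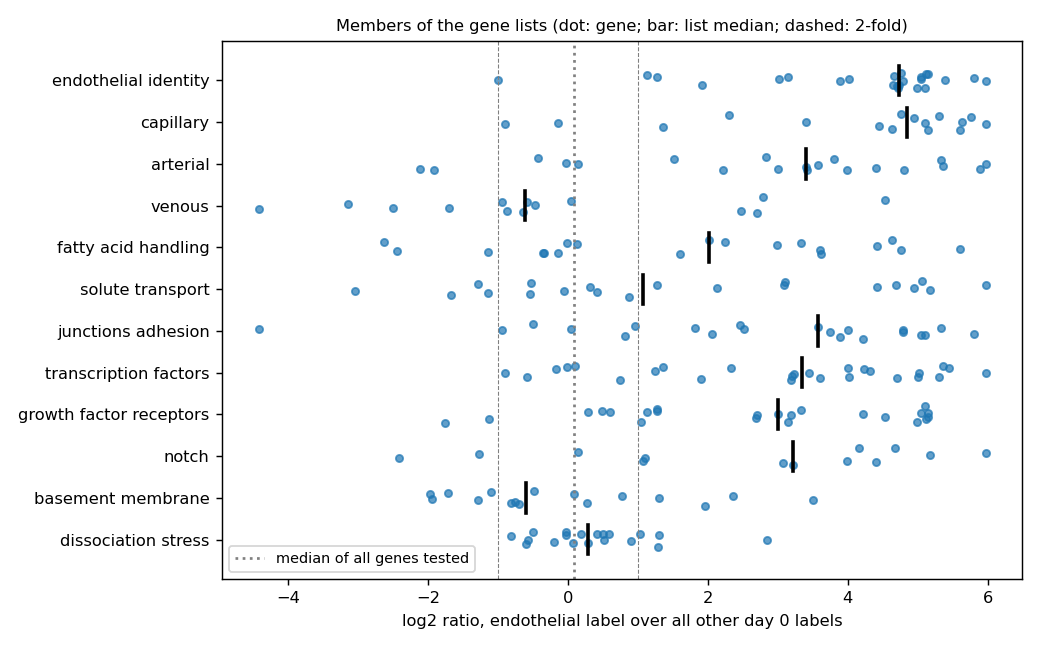
Log2 ratio of the endothelial label to all other day 0 labels (x axis) for each measured member of 12 gene lists (y axis), with the list median as a bar and the median of all genes as a dotted line. The identity and capillary medians lie at 4.72 and 4.85, the arterial median at 3.41 and the venous median at -0.62.

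Capillary genes were high in the label, and 3 of them, Gpihbp1, Fabp4 and Tcf15, are also among its markers. Of the 16 capillary genes, 14 were at least 2-fold higher than in the other labels pooled and 0 were lower by that much, with a median log2 ratio of 4.85. Car4, a carbonic anhydrase on the capillary surface, stood at 392 cpm against 12.3 in FAPs and 45.7 in smooth muscle cells, its highest other label. Timp4, an inhibitor of matrix metalloproteinases, stood at 587 cpm against 144 in smooth muscle cells, and Aqp7, a glycerol and water channel, at 448 against 116. Rgcc, a cell cycle regulator induced by low oxygen, stood at 1721 cpm against 45.4 in FAPs. Lpl (418 cpm against 491 in FAPs) and the homeobox gene Meox1 (49.3 against 103) were the members short of 2-fold. Against the highest other label, 9 of the 16 were at least 2-fold higher, the most of the vessel lists.

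Of 19 genes of fatty acid handling, 11 were at least 2-fold higher in the endothelial label than in the other labels pooled and 3 lower. Their median was 2.02, against 15.4% higher and 20.5% lower of all genes. The list includes the label markers Gpihbp1 and Fabp4. Against the highest other label, 1 of the 19 was at least 2-fold higher, with a median of -0.50, and for 8 that label was platelet. Cd36, the fatty acid transporter, stood at 1568 cpm against 22.5 in FAPs (log2 ratio to all others 4.63, 4.54 to 4.72). Fabp5 stood at 709 cpm against 20.4, the monoglyceride lipase Mgll at 681 against 63.7, and the nuclear receptor Pparg at 48.0 against 2.75. The fatty acid transport proteins were low, with Slc27a1 at 2.90 cpm, Slc27a4 at 7.41 and Slc27a3 at 14.8, against 5.81, 10.5 and 7.47 in FAPs. Lrp1, an endocytic receptor, stood at 58.7 cpm against 399 in FAPs, and at 16.5 to 23.3 cpm in the 3 main clusters described in what follows, since a cluster of 52 cells with FAP genes held it at 288 cpm. Of 20 measured solute carriers and channels, 10 were at least 2-fold higher than in the pool and 4 lower. The 10 included the nucleoside carrier Slc28a2 (202 cpm against 3.06 in FAPs) and the efflux pump Abcb1a (130 against 3.73), known from the blood-brain barrier. Against the highest other label, 4 of 19 solute carriers and channels were at least 2-fold higher. The insulin-regulated glucose carrier Slc2a4 was at 0.32 cpm, from 1 UMI, and the general glucose carrier Slc2a1 at 20.6 cpm against 29.7 in FAPs.

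Receptors, junctions and transcription factors followed the identity genes, with the same background of 15.4% of all genes higher and 20.5% lower. Of 23 growth factor receptors, 18 were at least 2-fold higher and 2 lower (Tgfbr2 and Tgfbr3). S1pr1, the sphingosine phosphate receptor that tightens the barrier, stood at 258 cpm against 3.86 in FAPs. Of 21 measured junction and adhesion genes, 15 were at least 2-fold higher and 1 lower, the latter being Selp. Of 26 transcription factors, 20 were at least 2-fold higher and 0 lower. They included the ETS factors Erg (88.9 cpm against 1.77 in FAPs) and Fli1 (275 against 6.67) and the zinc finger factor Gata2 (158 against 2.33). Of 13 measured Notch pathway genes, 10 were higher and 2 lower. The ligand Dll4 stood at 137 cpm against 1.47 in FAPs, and the target Nrarp at 203 against 1.53. Against the highest other label instead of the pool, 3 of 23 receptors and 1 of 21 junction genes were at least 2-fold higher. So were 2 of 25 transcription factors and 2 of 13 Notch genes, beside 1.74% of all genes. That highest label was platelet for 17 receptors, 13 junction genes, 16 transcription factors and 4 Notch genes, and smooth muscle for 8 Notch genes.

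Of 22 measured ligands, 11 were at least 2-fold higher and 8 lower, against 15.4% and 20.5% of all genes. Against the highest other label, 2 of 21 ligands were at least 2-fold higher, beside 1.74% of all genes. Pdgfb, the growth factor that recruits pericytes, stood at 120 cpm against 2.33 in FAPs, and the stem cell factor gene Kitl at 375 against 27.1. Igf1 (37.4 cpm against 313) and Il33 (9.35 against 129) were lower than in FAPs, and stood at 15.2 to 20.8 and at 0.99 to 6.42 cpm in the 3 main clusters. Of 16 basement membrane genes, 4 were higher and 5 lower, with a median of -0.60, shares near the 15.4% and 20.5% of all genes. Sparcl1 (1791 cpm against 489 in FAPs) and the collagen IV chain Col4a2 (470 against 209) were on the higher side and the linker Nid1 (120 against 530) on the lower. Of 16 genes of flow sensing and nitric oxide, 6 were higher and 5 lower, with a median of -0.07. The flow-responsive factor Klf2 stood at 3294 cpm against 850 in FAPs, and the endothelial nitric oxide synthase Nos3 at 86.0 against 2.63. The related factor Klf4 stood at 941 cpm against 951.

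Of 22 antigen presentation and interferon-responsive genes, 13 were at least 2-fold higher than in the other labels pooled and 6 lower. These stand against 15.4% and 20.5% of all genes, so that the lower share is near the background. Against the highest other label, 1 of the 22 was at least 2-fold higher, and for 14 that label was platelet. Ly6e stood at 1696 cpm against 302 in FAPs, Bst2 at 848 against 146 and Isg15 at 632 against 53.8. The class II chain gene Cd74 stood at 523 cpm against 31090 in immune cells, and at 62.3 to 79.9 cpm in the 3 main clusters, as 1437 of its UMIs lay in the cluster of 52 cells. The class II genes H2-Aa, H2-Ab1 and H2-Eb1, with Ifi27l2a and Cxcl10, were the other lower members.

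By the ratio to the highest other label, 15 genes led among those with at least 100 cpm and 50 UMIs, and a few cells decided several of them. Ccl21a, a lymphatic chemokine, led with 293 cpm against 18.4 in FAPs, but 900 of its 909 UMIs lay in 3 cells. Those 3 cells held 159, 394 and 347 UMIs of Ccl21a, with 2, 14 and 10 UMIs of Mmrn1 and 4, 5 and 6 of Lyve1, both also lymphatic markers. The 4 globin genes were also among the 15, with Hbb-bs at 2760 cpm against 506 in FAPs. Of all globin UMIs in the label, 93.5% lay in 11 cells, and in the 3 main clusters described in what follows Hbb-bs stood at 105 cpm, under the level in FAPs. The genes left after these were Car4 (8.59-fold), the phosphatase Alpl (4.91-fold), Gm12002, Timp4, Dll4, the repressor Bcl6b (3.87-fold), Aqp7, Thrsp, Cmtm8 and the ectoenzyme Cd38 (3.55-fold). Their highest other label was smooth muscle or platelet, the labels that carried endothelial RNA.

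The most abundant transcripts outside mitochondrial and ribosomal protein genes were the actin-binding Tmsb4x (21641 cpm), Fabp4 (19386), the nuclear RNA Malat1 (16597) and Aqp1 (5810). Gsn, a FAP marker, was among the first 6 at 5202 cpm, against 44811 in FAPs. The cluster of 52 cells with FAP genes held it at 25365 cpm and the 3 main clusters at 1667 to 1947, under the levels of the other genes listed here in the label as a whole. The other genes of the first 15 were Actb, Igfbp7, B2m, Ubb, Hspa1a, Cst3, Ifitm3, Ly6c1, Klf2 and Gng11. Gng11, a G protein subunit, had the highest log2 ratio of this group after Aqp1 and Fabp4, at 3.59 (3.54 to 3.64).

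The cells were then clustered among themselves with 63 capillary, arterial, venous and lymphatic genes left out, so that these could be described across the clusters. The largest cluster held 457 cells (42.0%) and the next 433 (39.8%), called the heat shock cluster for Hspa1a, the most abundant of its 5 leading genes by ratio. A cluster of 136 cells (12.5%, 10.6 to 14.6) is called arterial-like. It was picked as the cluster with the most arterial genes at least 2-fold higher than in the other endothelial cells. A cluster of 52 cells (4.78%) carried FAP genes and a cluster of 11 (1.01%) globin genes. These were picked by their count of FAP markers at least 2-fold higher and by their share of red cell genes. Of the clusters left, the heat shock cluster was picked by its larger share of genes that tissue digestion is known to induce. The largest cluster was the one that remained. Cells of 1 matrix are not replicates, and a cluster's leading genes describe it and are no result.

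**Figure D3:**
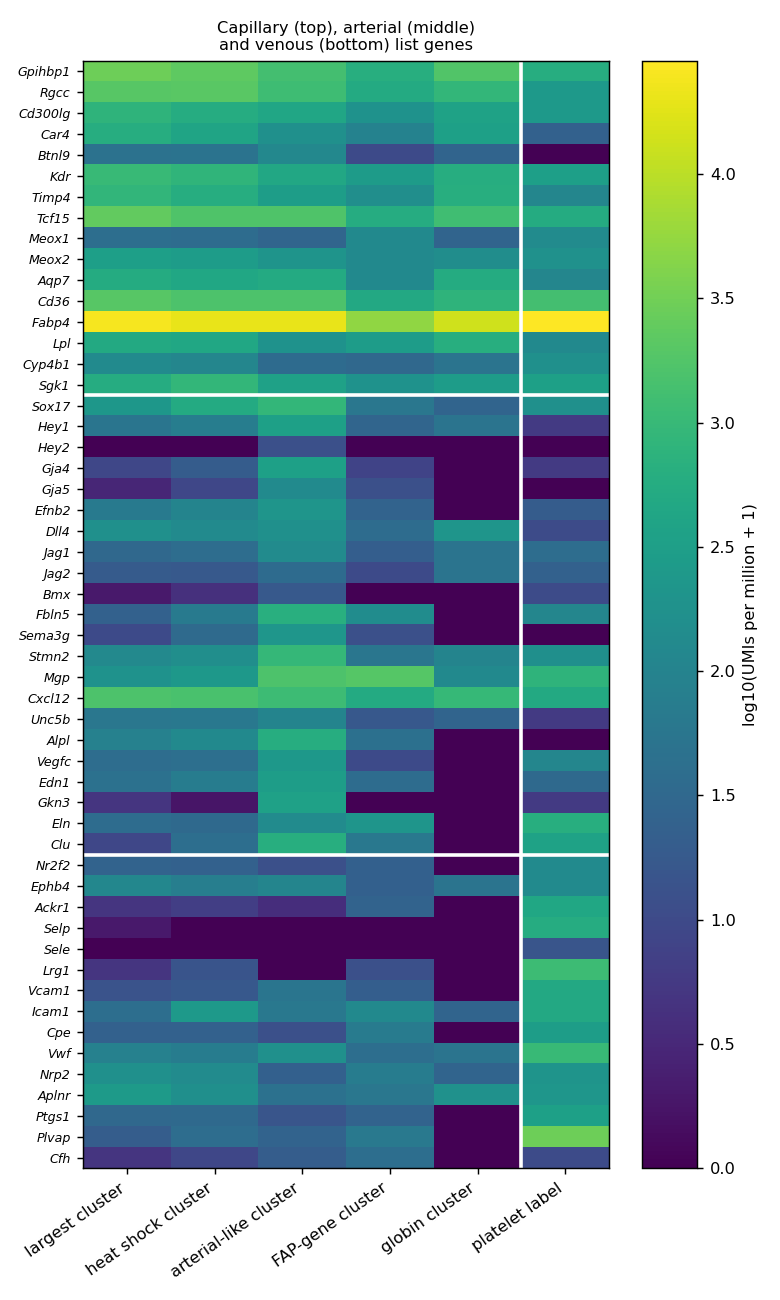
Levels, as log10 of UMIs per 1000000 plus 1 (colour), of capillary (top), arterial (middle) and venous (bottom) genes in the 5 clusters of the endothelial label and, right of the white line, in the platelet label. Most arterial genes are brightest in the arterial-like cluster and most venous genes in the platelet label. Among the exceptions, Mgp and Eln are brighter in the FAP-gene cluster than in the arterial-like one. Cxcl12 is brighter in the largest and heat shock clusters, and Dll4 and Jag2 in the globin cluster.

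The arterial genes were concentrated in the cluster of 136 cells. As this cluster was picked by its count of higher arterial genes, that count describes the pick and is no separate result. Of 20 measured arterial genes, 17 were at least 2-fold higher there than in the other endothelial cells and 0 lower, with a median of 2.49. Over 9286 genes, 5.58% were at least 2-fold higher and 11.1% lower, and the median was -0.03. Gja4, the gap junction protein connexin 37, stood at 344 cpm (287 to 410) against 7.9 in the largest cluster and 18.4 in the heat shock cluster. Gja5, connexin 40, stood at 132 cpm against 2.0 and 8.0. The Notch target Hey1 stood at 344 cpm against 52.4 and 76.2. In the largest and heat shock clusters, Gja4 had 8 and 23 UMIs, Gja5 had 2 and 10, and Hey1 had 53 and 95. The part of RNA from other cells in these counts was not tested.

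Among the other arterial genes, the size of the difference between clusters varied. Sox17, a factor of arterial identity, stood at 873 cpm in the arterial-like cluster, 533 in the heat shock cluster and 227 in the largest. Stmn2 stood at 920, 160 and 126 cpm, and the elastic fibre protein Fbln5 at 634, 66.6 and 22.8 cpm. Dll4 (171, 134 and 170 cpm), Unc5b (102, 59.4 and 58.4) and the chemokine Cxcl12 (1124, 1472 and 1651) were the 3 members short of 2-fold. Gkn3, known from mouse arterial endothelium of the brain, stood at 358 cpm against 0.80 in the heat shock cluster and 4.0 in the largest, but 22 cells held it and 3 of them had 48.5% of its UMIs. Cytl1 led the cluster at 394 cpm, with 75.5% of its UMIs in 3 cells.

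Of 16 capillary genes, 4 were at least 2-fold lower in the arterial-like cluster (Car4, Timp4, Lpl and Cyp4b1) and 1 was higher (Btnl9), against 11.1% and 5.58% of all genes, and the median was -0.67. Car4 stood at 168 cpm against 601 in the largest cluster and 396 in the heat shock cluster, and Timp4 at 298 against 853 and 608. Aqp1, a label marker, stood at 1449 cpm against 8022 in the largest cluster and 6743 in the heat shock cluster, a log2 ratio of -2.14. Fabp4 (20667 cpm against 24700 and 19957) and Cd36 (1615 against 2016 and 1599) were close to the level of the other clusters. The count of lower capillary genes was 9 at a coarser clustering (78 cells) and 2 at a finer one (192 cells). It was 1 when the zonation genes were kept in the clustering (228 cells). The share of all genes was not computed for these clusterings. The count of arterial genes at least 2-fold higher was 17, 16 and 15 in these clusterings, where the arterial-like cluster was picked by that count in the same way.

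Of 22 antigen presentation and interferon genes, 5 were at least 2-fold higher in the arterial-like cluster and 5 lower, against 5.58% and 11.1% of all genes. The 5 lower ones were H2-Aa, H2-Ab1, H2-Eb1, Cd74 and Cxcl9, and the FAP-gene cluster on the other side of the ratio held the first 4 at high levels. Against the 2 large clusters alone, Cd74 (79.9 cpm against 62.3 and 73.0), H2-Ab1 (46.8 against 51.4 and 38.5) and H2-Eb1 (19.3 against 21.8 and 20.1) were not lower by 2-fold. Ifi27l2a stood at 518 cpm against 38.6 in the largest cluster and 85.0 in the heat shock cluster, and Ifit3 at 325 against 54.4 and 115. Isg15 stood at 1061 cpm in the arterial-like and 1050 in the heat shock cluster, against 196 in the largest. The endothelin gene Edn1 stood at 303 cpm against 45.5 and 73.0. The smooth muscle actin gene Acta2 was at 102 cpm in the arterial-like cluster against 5.9 in the largest. The 12 pericyte and smooth muscle markers together reached 507 cpm there, against 285 in the largest cluster, 426 in the heat shock cluster and 19344 in the smooth muscle label. Rgs5 made up a large part of the cluster sums, at 220, 206 and 321 cpm in the same order. Tagln stood at 63.4, 10.9 and 11.2 cpm and Mylk at 60.6, 33.6 and 30.5. Kcnj8 stood at 0, 5.9 and 12.8 cpm and Des at 8.3, 7.9 and 12.8. The part of smooth muscle RNA in these differences was not tested.

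The largest cluster had few genes that were higher by 2-fold and more that were lower. Of 16 capillary genes, 1 was at least 2-fold higher there and 0 lower, with a median of 0.57, while 2.6% of all genes were higher and 9.13% lower. Of the 19 genes of the digestion list described next, 18 were at least 2-fold lower there, with a median of -2.48. As the largest cluster was left by a pick on these genes, this count describes the pick and is no separate result. Its highest ratios among genes with at least 100 cpm were Gm6483 (2.47-fold), Chek2 (2.26-fold), Aplnr (2.23-fold), Stxbp6 (2.19-fold) and Car4 (2.06-fold). Aplnr, the apelin receptor, is counted with the venous list. It stood at 269 cpm in the largest cluster, 163 in the heat shock cluster and 44.1 in the arterial-like one.

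Genes that tissue digestion is known to induce were among those used to form the clusters, and the heat shock cluster was picked by its share of them. Their difference between clusters therefore follows from the grouping and the pick, and is given as a description. Of 19 such genes, 18 were at least 2-fold higher in the heat shock cluster than in the other endothelial cells and 0 lower, with a median of 1.79, against 3.22% higher and 7.57% lower of all genes. Hspa1a, a heat shock chaperone, stood at 7082 cpm against 657 in the largest cluster and 3588 in the arterial-like one. Fos stood at 3024, 365 and 1505 cpm, and Atf3 at 1007, 67.3 and 402. Per 1000 UMIs, a median cell had 39 UMIs of these genes in the heat shock cluster, 6 in the largest, 13 in the arterial-like cluster and 14 in FAPs. Klf2 (4560 cpm against 2360 in the largest cluster), Klf4 (1414 against 421), Icam1 (258 against 40.6) and Sox17 were higher in the same cells. The part of digestion in the levels of these 4 genes was not tested. The 3 cells with Ccl21a also lay in this cluster, so its leading gene by fold rests on them.

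The cluster of 52 cells held FAP genes. As it was picked by its FAP markers, which were not left out of the clustering, their level there describes the pick and is no separate result. Its cells had a median of 7605.5 UMIs, against 1973 to 2453 in the 3 main clusters, and 2658 genes against 1116 to 1270. The 8 FAP markers together stood at 45234 cpm, against 2637 to 3098 in the 3 main clusters, 76612 in FAPs and 6178 in immune cells. The identity genes stood at 5271 cpm there against 13824 to 16294 in the main clusters. The doublet caller scrublet marked 30 of the 52 cells and 1 cell of the other clusters, and the part of doublets in these values was not tested further. The 8 immune markers together stood at 651 cpm there, against 68.9 to 83.4 in the 3 main clusters and 18889 in the immune label. By ratio the cluster was led by Mmp9, Acp5, Mrgprg, Postn and Cd74, and a few cells decided most of these. For Mrgprg, seen in 13 cells, 3 cells held 57.6% of the UMIs, and for Postn 86.0%. For Cd74, at 3237 cpm, 3 cells held 98.3% of the UMIs, and for Mmp9, at 345 cpm, the UMIs lay in 2 cells. Without the clusters of 52 and 11 cells, 1026 cells remained, and the counts of identity, capillary, arterial and venous genes at least 2-fold higher were 23, 14, 15 and 4, as with them.

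**Figure D4:**
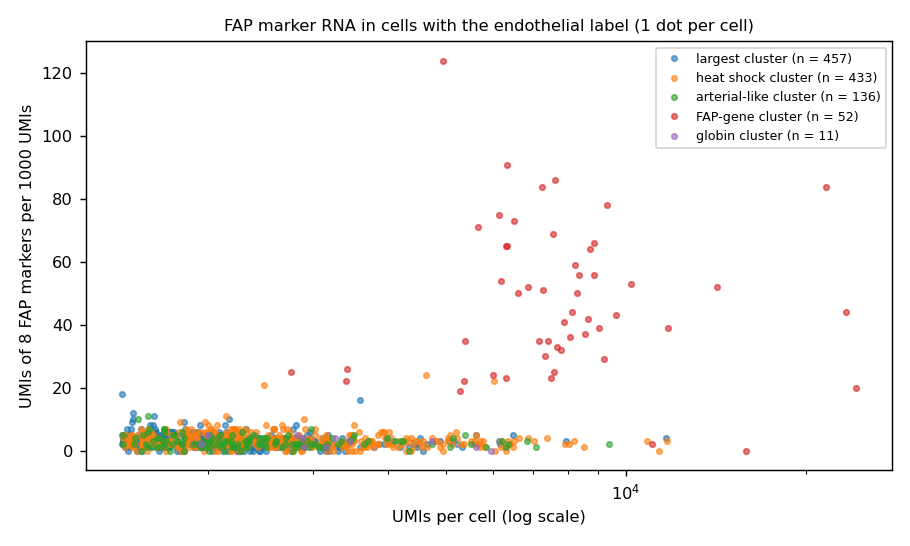
UMIs of 8 FAP markers per 1000 UMIs (y axis) against the UMIs of each cell (x axis, log scale), 1 dot per cell with the endothelial label, coloured by cluster. The FAP-gene cluster, picked by these markers, has a median of 43.5 marker UMIs per 1000, and the other clusters have medians of 2 to 3.

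Several venous genes were at low levels in the endothelial label and higher in the platelet label. Of 14 measured venous genes, 4 were at least 2-fold higher in the endothelial label than in all other labels and 4 lower, with a median of -0.62, against 15.4% and 20.5% of all genes. The 4 that were higher were Aplnr, Ephb4, Nrp2 and Vwf. The platelet label is among those other labels, and when it was counted with the endothelial cells 7 venous genes were at least 2-fold higher. Selp, the P-selectin that slows leukocytes on venous walls, had 1 UMI in the 1089 endothelial cells (0.32 cpm, 0.01 to 1.80) and 122 UMIs in the 57 cells of the platelet label (575 cpm). Ackr1, which carries chemokines across venous walls, stood at 7.41 cpm against 443, and Lrg1 at 8.38 against 1145. Plvap, the diaphragm protein of fenestrae and caveolae, stood at 33.8 cpm against 3021, and von Willebrand factor, Vwf, at 84.8 against 1023. The adhesion receptor Vcam1 stood at 19.7 cpm against 490.

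As a list, 10 of 14 venous genes were at least 2-fold higher in the platelet label than in the endothelial label and 0 lower, with a median of 3.52. Of all 9455 genes compared, 7.27% were higher and 13.2% lower. The same comparison had 10 of 16 capillary genes lower and 1 higher (Meox1), and 11 of 20 arterial genes lower and 2 higher (Eln and Clu). Car4 stood at 23.6 cpm in the platelet label, Rgcc at 250 against 1721, and Cldn5 at 108 against 1004. Alpl, Btnl9, Gja5 and Sema3g were at 0 there, and by a floor of 3 counts over the label the log2 ratio of Alpl was at most -3.46. Fabp4 and the sialomucin Emcn (1159 cpm against 657) were above the endothelial level, and Cd36 (1329 against 1568) was below it by less than 2-fold. The highest ratios after Selp were those of Inhba (22 UMIs against 1), Lrg1 and Amigo2 (212 cpm against 1.61). Within the endothelial label no cluster held these genes at the level of the platelet label, since Selp, Lrg1 and Ackr1 stood at no more than 0.99, 13.6 and 24.8 cpm in any cluster.

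**Figure D5:**
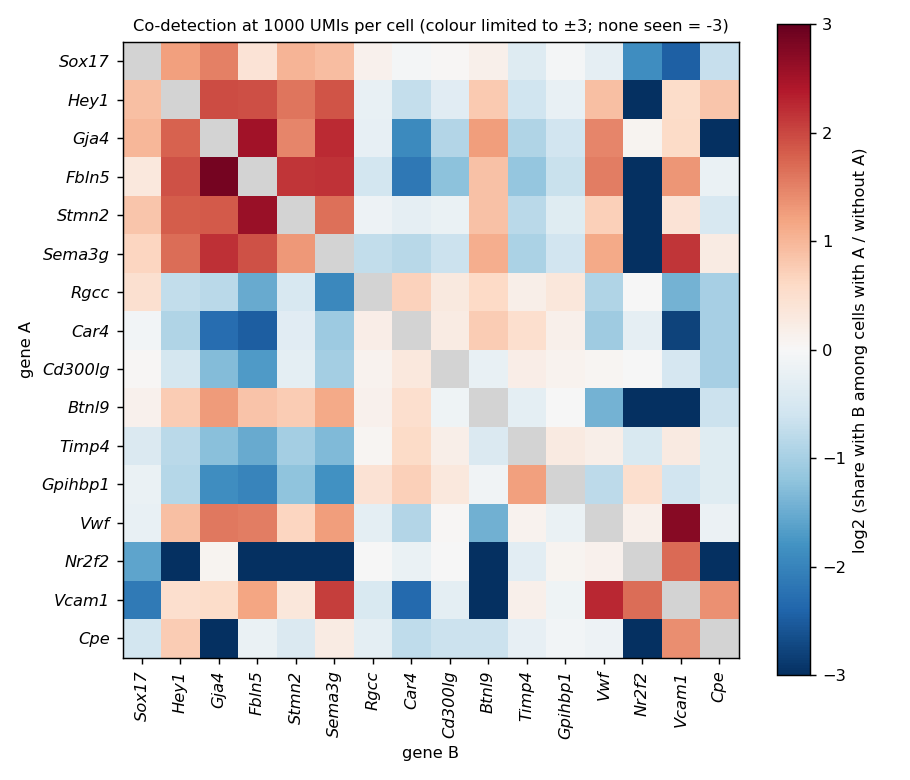
Co-detection among cells thinned to 1000 UMIs, for gene A (y axis) and gene B (x axis), as log2 of the share of cells with B among cells with A over that among cells without A (colour, limited to 3 either way). Arterial pairs at the upper left are red, with 23 of 30 at least 2-fold, and arterial genes in the Gpihbp1 row are blue, from 21.6% to 5.51% for Fbln5.

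Pairs of genes were also read cell by cell without clusters. At 1000 UMIs per cell, a UMI of Gja4 was seen in 47 cells, and 40.4% of these (26.4 to 55.7) had a UMI of Fbln5, against 7.0% (5.5 to 8.7) of the cells without Gja4. Stmn2 was seen in 38.3% and 13.8% and Hey1 in 27.7% and 8.1%. Of 30 ordered pairs of 6 arterial genes, which count each pair in both directions, 23 were seen together at least 2-fold more often. Their median share was 26.1% against 7.11%. Of 12 ordered pairs of venous genes, 6 were at least 2-fold more frequent and 2 rarer. Of 24 pairs that ask for a venous gene given an arterial one, 5 were more frequent and 7 rarer by that much. The share over all gene pairs was not computed, so these counts have no background. Car4 went the other way, with a UMI in 8.5% (2.4 to 20.4) of cells with Gja4 and in 32.2% (29.4 to 35.2) of cells without. Of 36 pairs that ask for an arterial gene given a capillary one, 16 were at least 2-fold rarer and 2 were at least 2-fold more frequent. Of the 36 reverse pairs, a capillary gene given an arterial one, 4 were at least 2-fold rarer and 2 more frequent, with median shares of 28.1% and 43.7%. Among 30 pairs of capillary genes, 1 was at least 2-fold higher, and the median shares were 45.7% and 38.7%. Btnl9, on the capillary list, was seen in 12.8% (4.8 to 25.7) of cells with Gja4 and 5.4% (4.1 to 6.9) of cells without, and these intervals overlap.

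Across all genes, several of those that led the spread between cells were seen in few cells. Of 3186 genes with a mean of at least 0.05 UMI per thinned cell over the whole label, the median Fano factor, the variance over the mean, was 1.03. The globin genes Hbb-bs (232) and Hba-a1 (119) were highest there. Ccl21a had a UMI in 4 thinned cells, Cytl1 in 7, Mgp in 191 and Hspa1a in 595. In the 3 main clusters the highest were Ccl21a (79.4), Sag (28.1), Mgp (23.3), Cytl1 (11.2), Hspa1a and Nts (7.49). Sag, the arrestin of photoreceptors, had 81.7% of its heat shock cluster UMIs in 3 of 21 cells. Gkn3 (5.94), Fabp4 (5.01), Clu (4.88), Aqp1 (4.04) and Isg15 (3.89) were also among the first 15.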

How the data were processed

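The deposited raw table holds UMI counts per gene and barcode of the day 0 matrix, made per the submitters' processing notes with Cell Ranger 2, Seurat 2.3.4, R 3.6.2 and mm10, without the role of each. The deposited normalized table holds natural log values: each count was divided by the total of its cell, scaled to 10000 and raised by 1 before the log, as checked on the counts. The deposited metadata give each cell's UMI count, its mitochondrial share as a fraction and a text label. Totals here were summed from the table, and differ from the deposited ones in 2013 cells. Labels were taken from the metadata, 14 barcodes without a label were left out, and 3 metadata columns were not used. Day 0 shares 40, 12 and 39 barcode sequences with days 2, 5 and 7. Of 349 distinct genes in 29 lists, 8 were not found under the names used and were not analysed here. The members and lists were chosen with earlier results of these data known.

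Counts were summed over the cells of a label or cluster and given per 1000000 UMIs with exact Poisson intervals, shares with Clopper-Pearson intervals, and ratios with the interval of the exact binomial split of the 2 counts (scipy 1.17.1). A side with 0 counts was set to a floor of 3, and a ratio from it is a bound. PCR copies are removed by UMIs, and intervals cover counting error only. Cells were thinned with seed 1. Endothelial cells were clustered with scanpy 1.11.5 (2000 variable genes, 20 components, 15 neighbours, Leiden resolution 0.5). Scrublet marked doublets, 50 of 5176 cells (0.966%), which stayed in the main values. Besides list members, the text names, by rule, 15 genes by ratio, 15 by level, 15 by Fano factor and 5 leading genes per cluster; the genes of highest ratio in the platelet label and any others were chosen after their values were seen. Scripts were tested on simulated data.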

Additional observations from a re-analysis of the deposited data

Results flagged for a closer look

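The 14 barcodes of the raw table that have no label were used in no comparison. The 5 label markers made up 0.191% of their 61319 UMIs, above the limit that a count of 0 allows, with 81 UMIs of Fabp4, 19 of Aqp1, 8 of Tcf15, 6 of Gpihbp1 and 3 of Cdh5. Per barcode the share had a median of 0.057% and a highest value of 3.55%, against medians of 3.33% in the endothelial label and 0.0304% in FAPs.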

How the results depend on the processing

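No paired analysis was possible because there is 1 matrix at day 0. The endothelial share was 22.3% of cells not labelled immune and 19.8% without the FAP-gene and globin clusters, the latter an alternative chosen after seeing the data, as were those with the platelet label moved. The number of genes at least 2-fold higher was 193 against the highest other label and 132 by the authors' normalized log values, and lower 4179 and 140. Against the highest other label, identity, capillary, arterial and venous genes at least 2-fold higher numbered 2, 9, 7 and 0. The difference of mean log values, which is smaller for low genes by its construction, gave 2 arterial and 0 venous genes. Equal weights for the other labels gave 2 venous genes, and the platelet label counted as endothelial gave 7. The log2 ratios of Cdh5, Gpihbp1, Fabp4, Tcf15 and Aqp1 kept their direction in the settings that follow, while against the highest other label, platelet, Fabp4 was -0.56. They were 3.09, 3.91, 6.04, 3.72 and 4.48 by mean log values and 5.27, 5.77, 4.93, 5.47 and 5.23 without the FAP-gene and globin clusters. They were 5.65, 5.83, 5.58, 5.50 and 5.55 with the platelet label left out, and 5.64, 5.76, 5.62, 5.44 and 5.53 with it counted as endothelial. Fabp4 was 4.72 in thinned cells and 4.85 without doublet calls, where Aqp1 was 5.16. The arterial-like share was 7.16%, 17.6% and 20.9% at resolution 0.3, at 0.8 and with zonation genes kept, where capillary genes at least 2-fold lower numbered 9, 2 and 1. The cause of these changes was not tested. Ratios of genes with few UMIs have wide counting intervals.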
